A study of Mus musculus with 20 samples.

Results

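Matrix metalloproteases and their inhibitors were followed in tumour-associated macrophages and microglia of mouse glioma. The group was chosen by gene symbol and comprised Mmp8, Mmp9, Mmp12, Mmp13, Mmp14, Mmp19, Adam8, Timp1, Timp2 and Timp3, which are 10 of the 23329 symbols in the deposited table of raw counts. All 10 passed the filter on low counts, among 15363 genes tested. The series holds 20 libraries of polyadenylated RNA from sorted cells, in 6 groups, made from C57BL/6 mice.

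The genetically engineered mouse model (GEMM) of glioma was raised by intracranial injection of DF1 chicken fibroblasts that make the RCAS-PDGFB-HA and RCAS-shP53 viruses, into Flt3:Cre Rosa26:mTmG mice aged 5 to 6 weeks. RCAS-PDGFB-HA carries the growth factor PDGFB and RCAS-shP53 a hairpin against p53. From each of 3 GEMM tumours, Cd45+ Cd11b+ Ly6c- Ly6g- cells were parted by the reporter into GEMM MG (microglia, GFP- TdTomato+) and GEMM BMDM (bone marrow-derived macrophages, GFP+ TdTomato-), so lineage rests on Flt3-Cre recombination. Tumours of the mouse glioma line GL261 gave GL261 MG and GL261 BMDM from 3 tumours. The labels used here do not say how GL261 tumours were made or whether their hosts carried the reporter. The other groups were Normal MG, microglia of normal brain (3 libraries), and Monocytes, Ly6C high blood monocytes (5 libraries). No age is stated for the mice of the other 4 groups.

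Matrix metalloproteases are zinc enzymes, secreted or bound to the membrane, that are made as inactive precursors and cut collagens, elastin, gelatin and other matrix or cell surface proteins. ADAM proteases are relatives that shed the outer parts of membrane proteins. Tissue inhibitors of metalloproteases (TIMPs) bind the active site of these enzymes, and TIMP2 also takes part, together with the membrane-type enzyme MMP14, in the activation of pro-MMP2. In glioma, tumour-associated myeloid cells are a known source of such proteases.

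Mmp13, Mmp12 and Mmp8 lie in the metalloprotease cluster of chromosome 9, on the plus strand at 7272514 to 7283331, 7344381 to 7369499 and 7558456 to 7568485 (GRCm38, GENCODE M21). Their promoters are shown because these clustered genes divided into different patterns below. Mmp12 and Mmp13 were high in microglia and macrophages of tumours, and Mmp8 in blood monocytes. The sequences are RefSeq windows of GRCm38.p6 from 250 bases before to 50 bases after an annotated start, and the capitals mark matches to any of 3 motifs. Mmp12 has a pair of annotated windows, of which the window at the start of its principal transcript is shown.
Mmp13, chr9:7272264-7272563, plus strand: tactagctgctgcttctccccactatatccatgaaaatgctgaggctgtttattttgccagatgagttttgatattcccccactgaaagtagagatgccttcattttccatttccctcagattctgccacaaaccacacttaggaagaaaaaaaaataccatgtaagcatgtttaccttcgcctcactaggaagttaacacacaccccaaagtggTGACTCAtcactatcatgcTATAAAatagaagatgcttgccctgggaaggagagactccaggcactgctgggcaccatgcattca
Mmp12, chr9:7347124-7347423, plus strand: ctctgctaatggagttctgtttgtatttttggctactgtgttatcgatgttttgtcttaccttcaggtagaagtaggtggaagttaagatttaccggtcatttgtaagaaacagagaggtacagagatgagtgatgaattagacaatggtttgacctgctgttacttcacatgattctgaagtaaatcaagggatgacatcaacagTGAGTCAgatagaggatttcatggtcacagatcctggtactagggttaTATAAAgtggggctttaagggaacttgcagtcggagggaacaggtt
Mmp8, chr9:7558179-7558478, plus strand: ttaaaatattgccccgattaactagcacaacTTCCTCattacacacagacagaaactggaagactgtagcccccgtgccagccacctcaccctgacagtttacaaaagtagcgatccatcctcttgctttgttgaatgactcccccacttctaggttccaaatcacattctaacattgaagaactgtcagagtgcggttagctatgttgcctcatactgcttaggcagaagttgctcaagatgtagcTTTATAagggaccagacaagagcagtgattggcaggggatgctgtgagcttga

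The motifs searched, on both strands, were TGACTCA for AP-1 (the Fos and Jun dimer, whose sites near the start are textbook features of several metalloprotease promoters), GAGGAA for a PU.1 box (the myeloid factor encoded by Spi1) and TATAAA for a TATA box. No matches in these windows overlapped with each other. With the start base counted as 0 and upstream bases as negative, Mmp13 held the AP-1 letters at −35 to −29 and Mmp12 held them, as TGAGTCA, at −44 to −38. Such letters stand in 5.2% of 32851 mouse promoter windows of this length. The window of Mmp8 had no AP-1 match and had the PU.1 box letters, as TTCCTC, at −219 to −214, which stand in 28.3% of windows. TATA box letters, present in 13.6% of windows, were at −16 to −11 in Mmp13, at 4 to 9 in Mmp12 and, as TTTATA, at −3 to 2 in Mmp8. All positions count from the RefSeq start of the window. For Mmp8 that start lies upstream of the GENCODE gene start of 7558456, and positions counted from the latter would be more negative. The other Mmp12 window had the PU.1 box letters at −86 to −81, and the windows of Mmp14, Adam8, Timp1, Timp2 and Timp3 had no match. RefSeq windows were matched for 8 of the 10 members, and none was at hand for Mmp9 and Mmp19. A match describes the letters and shows no binding.

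Library totals were 18113450 to 36297826 counts in the microglia and macrophage groups and 5077787 to 7801073 in Monocytes. The lineage labels were checked with P2ry12, a receptor of microglia, and Itga4, an integrin of recruited macrophages. P2ry12 was at 995 to 2011 CPM (counts per 1000000 counts of the library) in GEMM MG against 151 to 298 in GEMM BMDM, and Itga4 at 2.98 to 8.26 against 79.4 to 113. In GL261 the library labelled MG of tumour 80769 stood apart, with P2ry12 at 178 CPM against 753 and 716 in the other 2 MG libraries and Itga4 at 38.6 against 17.3 and 20.7. Its summed microglia markers (7 genes) were 2768 CPM against 9018 and 7824. Monocyte libraries 64820 and 64821 had 13.5% and 14.3% of their counts in the ribosomal precursor Rn45s. Xist, the RNA of the inactive X chromosome, was at 145 to 617 CPM in Monocytes and at most 2.73 elsewhere, so sex and cell type cannot be told apart in comparisons with Monocytes. Where leaving out such a library moved a called value of a member by over 1.5 times, the value without it stands in the same account. In these bulk libraries, fewer cells of a type and less RNA per cell cannot be told apart.

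**Figure D1:**
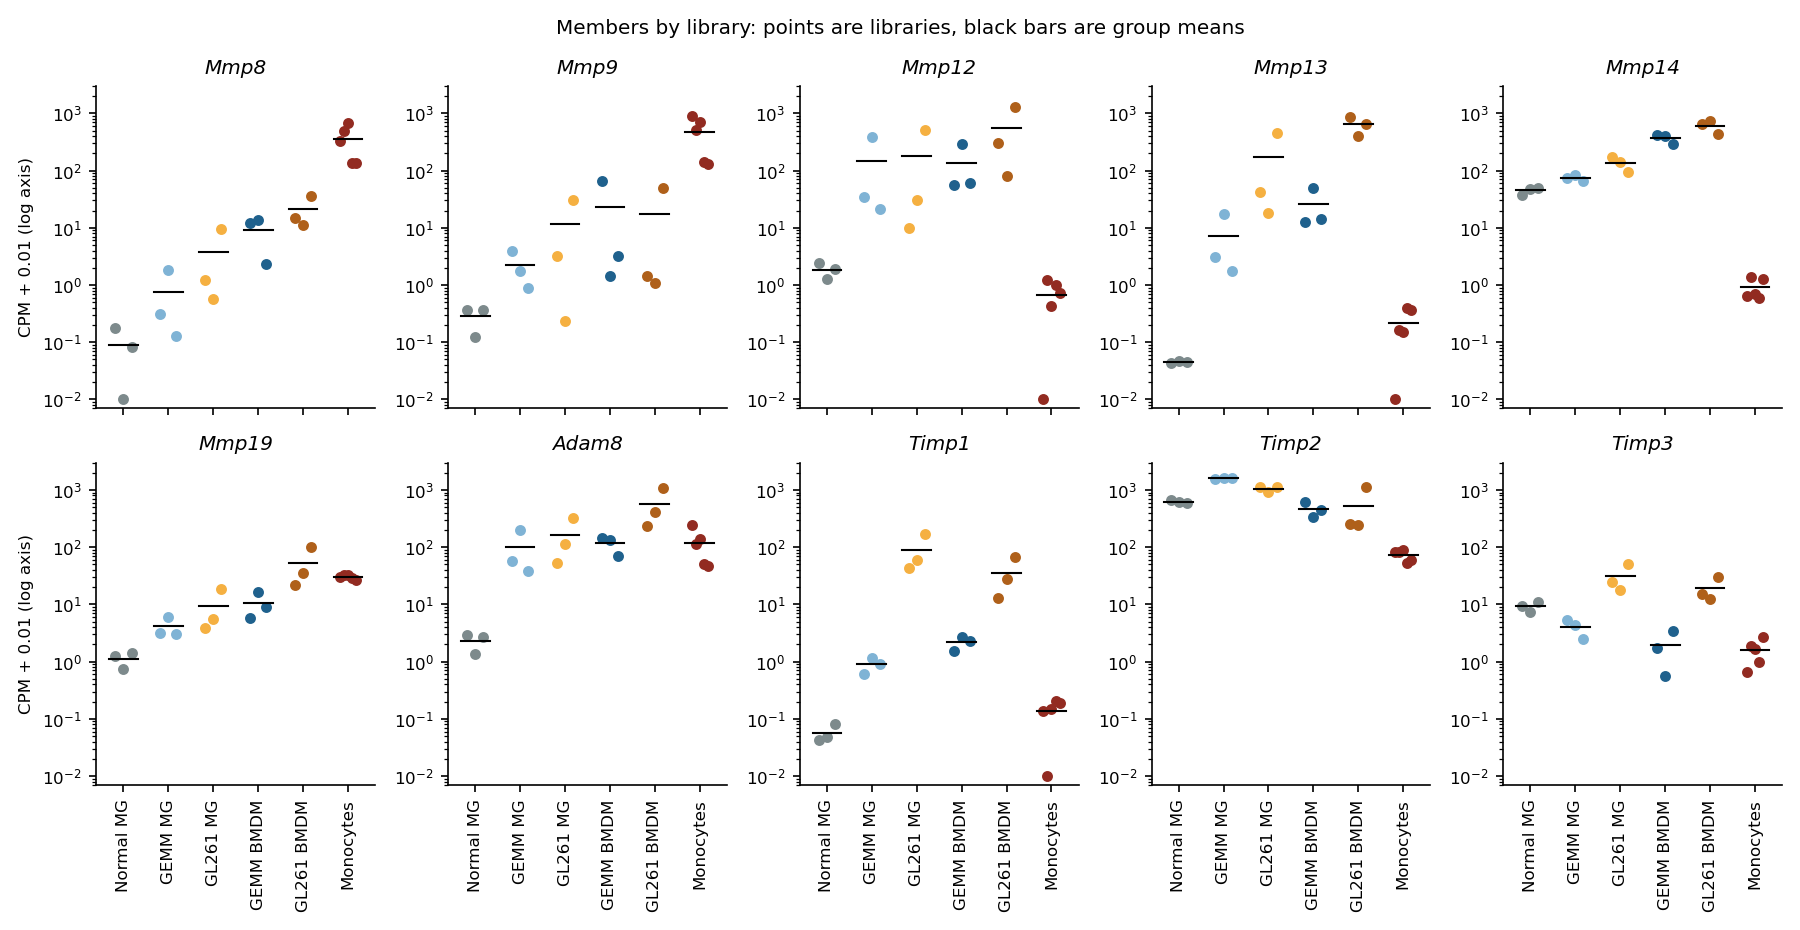
Level of each member in every library, as CPM plus 0.01 on a log axis (y) for the 6 groups (x), with points for libraries and black bars for group means. Mmp8 and Mmp9 were highest in Monocytes, Mmp12, Mmp13 and Mmp14 were at most 1.37 CPM there, and Timp2 was at 240.0 CPM or more in all 15 brain and tumour libraries.

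The collagenases were Mmp8 (neutrophil collagenase) and Mmp13 (collagenase 3), which cut fibrillar collagens. Mmp8 was at 332, 489, 681, 134 and 135 CPM in Monocytes. It was at 14.8, 11.4 and 36.5 CPM in GL261 BMDM (tumours 80766, 80767 and 80769) and at 12.001, 13.5 and 2.33 in GEMM BMDM (tumours 68702, BB30101 and BB30105). In GL261 MG it was at 1.21, 0.552 and 9.41 CPM, in GEMM MG at 0.303, 1.79 and 0.119, and in Normal MG at 0.165, 0 and 0.0712. The monocyte libraries did not overlap with any other group, and within each tumour the macrophages were above the microglia.

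Mmp13 was at 873, 403 and 659 CPM in GL261 BMDM and at 42.3, 18.2 and 462 in GL261 MG. In GEMM BMDM it was at 12.8, 49.5 and 14.3 CPM, and in GEMM MG at 3.03, 17.1 and 1.75. Each Normal MG library had 1 count, 0.0329 to 0.0378 CPM, and Monocytes had 0 to 2 counts per library, at most 0.394 CPM. Mmp13 was thus close to the limit of counting outside tumours, and all 12 tumour libraries were above all 8 others. The GL261 MG library of tumour 80769 was high, above the GL261 BMDM library of tumour 80767.

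Mmp9 (gelatinase B, which cuts denatured collagen) was at 901, 504, 693, 139 and 132 CPM in Monocytes. In GEMM BMDM it was at 65.5, 1.40 and 3.26 CPM and in GEMM MG at 3.99, 1.76 and 0.875. In GL261 BMDM it was at 1.40, 1.06 and 49.3 CPM and in GL261 MG at 3.17, 0.221 and 30.9, and Normal MG had 0.114 to 0.362. Among microglia and macrophages of tumours the gene was high in 3 libraries, GEMM BMDM of tumour 68702 and both cell types of GL261 tumour 80769, and the ranges of all 4 tumour groups overlapped.

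Mmp12 (macrophage elastase) was at 302, 80.4 and 1277 CPM in GL261 BMDM and at 9.86, 30.9 and 508 in GL261 MG. In GEMM BMDM it was at 55.0, 287 and 60.2 CPM, and in GEMM MG at 34.5, 378 and 21.6. Normal MG had 1.25 to 2.37 CPM and Monocytes 0 to 1.22. Tumour BB30101 was highest of the GEMM tumours and tumour 80769 of the GL261 tumours, in MG and in BMDM alike. Every tumour library was above every library of Normal MG and Monocytes.

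Mmp14 (MT1-MMP, anchored in the membrane, an activator of pro-MMP2) was even within groups. It was at 652, 724 and 428 CPM in GL261 BMDM, at 416, 400.4 and 289.6 in GEMM BMDM, at 171, 144 and 92.8 in GL261 MG and at 75.1, 82.3 and 64.5 in GEMM MG. Normal MG had 37.9, 47.3 and 50.1 CPM and Monocytes 0.591 to 1.37. In CPM, the order of the 6 groups held with no overlap between neighbours, which was true of no other member. These CPM values do not include the library scaling of the tests below. In those edgeR tests Mmp14 was not called between GL261 and GEMM, in MG (adjusted p = 0.175) or in BMDM (adjusted p = 0.138).

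Mmp19, a secreted protease that cuts basement membrane proteins, was even in Monocytes at 26.9 to 32.4 CPM. It was at 21.8, 35.1 and 99.9 CPM in GL261 BMDM, at 5.83, 16.6 and 8.95 in GEMM BMDM, at 3.87, 5.58 and 18.2 in GL261 MG, at 3.21, 6.12 and 3.02 in GEMM MG and at 0.719 to 1.39 in Normal MG. GL261 BMDM overlapped with Monocytes, and GEMM BMDM did not. Adam8, a membrane protease of myeloid cells, was at 235, 417 and 1072 CPM in GL261 BMDM and at 51.8, 112 and 319 in GL261 MG. It was at 146, 135 and 68.8 CPM in GEMM BMDM, at 57.5, 201 and 38.2 in GEMM MG, at 248, 115, 138, 51.0 and 47.0 in Monocytes and at 1.32 to 2.93 in Normal MG. Normal MG was the only group whose Adam8 range did not overlap with any other.

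Among the inhibitors, Timp2 was the most abundant by CPM. In CPM it was also higher in microglia than in macrophages in all 6 tumours, with tumour 80769 near even. It was at 1583, 1589 and 1625 CPM in GEMM MG, at 1108, 915 and 1139 in GL261 MG and at 659.6, 621 and 596 in Normal MG. In GEMM BMDM it was at 613, 339 and 441 CPM, in GL261 BMDM at 251, 240.0 and 1106, and in Monocytes at 52.0 to 88.0. The GL261 BMDM library of tumour 80769 was at the level of GL261 MG. The library scaling factors (TMM) of the tests below were 1.277 for MG and 0.9745 for BMDM of that tumour. They differ by more than the CPM values do, so the order in that tumour depends on scaling.

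Timp1, the inducible inhibitor, was at 43.0, 59.8 and 168 CPM in GL261 MG and at 12.7, 27.7 and 67.3 in GL261 BMDM. It was at 0.607, 1.13 and 0.914 CPM in GEMM MG and at 1.55, 2.71 and 2.30 in GEMM BMDM, and Normal MG and Monocytes had 0 to 2 counts per library. The models did not overlap, and the cell types were in opposite order in them. Timp3, which binds to the matrix, was at 24.9, 17.6 and 51.6 CPM in GL261 MG and at 15.3, 12.3 and 29.9 in GL261 BMDM. It was at 5.33, 4.30 and 2.43 CPM in GEMM MG and at 1.73, 0.547 and 3.46 in GEMM BMDM. Normal MG ranged from 7.30 to 10.9 CPM and Monocytes from 0.641 to 2.69. Every GL261 library was above every library of the other groups.

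Timp1 overlaps Syn1 and Timp3 overlaps Syn3, both on the opposite strand, and no source used here states the strand setting of the counting. Syn1 reached 5.58 CPM and Syn3 11.1 CPM in a library, so the low Timp1 and Timp3 values are uncertain where genes share bases. Mmp19 overlaps Tmem198b (7.24 to 13.6 CPM by group mean) and Mmp12 overlaps Mmp1b (at most 0.407 CPM). Timp2 overlaps Cep295nl and Adam8 overlaps Mir7062, both on the same strand. Adam8 also overlaps Gm16201 and Mmp19 overlaps Gm47093, both on the opposite strand. No levels were at hand for these last genes.

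The first comparison asked how macrophages of marrow origin differ from microglia of the same tumours. Values are fitted log2 fold changes with their standard errors, from edgeR's quasi-likelihood test with Benjamini-Hochberg adjustment over all genes tested. Mmp14 was higher in BMDM in both models, by 5.07 times in GEMM (log2 fold change 2.34 ± 0.26, standard error, adjusted p = 7.06e-06, n = 3 against 3) and by 5.39 times in GL261 (2.43 ± 0.26, adjusted p = 9.08e-06). Mmp8 was higher in BMDM by 11.96 times in GEMM (3.58 ± 1.04, adjusted p = 0.0208) and by 7.04 times in GL261 (2.82 ± 0.94, adjusted p = 0.0482). Mmp19 was higher in GL261 BMDM by 7.16 times (2.84 ± 0.56, adjusted p = 0.00185). Timp2 was lower in GEMM BMDM by 3.39 times (log2 fold change −1.76 ± 0.43, adjusted p = 0.00719).

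In GEMM, 2 of 10 members were called higher and 1 lower, where 20.8% of all genes tested were called (12.7% higher, 8.1% lower). In GL261, 3 were called higher and 0 lower, where 17.5% of genes were called (10.7% higher, 6.81% lower). The members' median log2 fold change was 1.32 in GEMM and 2.08 in GL261, against 0.01 and −0.08 over all genes. Adam8 had 2.18 ± 0.75 in GL261 (adjusted p = 0.0520) and 0.30 ± 0.72 in GEMM (adjusted p = 0.814), and Mmp13 had 2.24 ± 0.91 (adjusted p = 0.101) and 1.83 ± 0.92 (adjusted p = 0.178). Mmp12 had −0.06 ± 1.21 in GEMM (adjusted p = 0.982) and 1.97 ± 1.25 in GL261 (adjusted p = 0.292).

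The Mmp14 calls held in every alternative run, with log2 fold changes of 2.10 to 2.5001 in GEMM and 2.20 to 2.63 in GL261. The Mmp8 calls were lost in 7 of 14 alternatives in GEMM and in 7 of 13 in GL261, with adjusted p up to 0.151 and 0.169. Mmp8 was at 5.37 in GEMM without GEMM MG of tumour BB30101 and at 5.07 without both of its libraries. In GL261, Mmp8 ranged from 2.09 without GL261 BMDM of tumour 80769 to 4.83 without GL261 MG of that tumour, and Mmp19 from 1.90 to 3.77 in the same fits. The Timp2 call in GEMM was lost without both libraries of tumour BB30101 (−1.64, adjusted p = 0.0621), and the Mmp19 call in GL261 when only the groups compared were fitted (2.89, adjusted p = 0.0771). Without both libraries of tumour 80769, GL261 calls numbered 6, with Mmp8, Mmp14 and Mmp19 still called and with Mmp13 at 4.65 (adjusted p = 0.00271), Timp2 at −1.79 (adjusted p = 0.000195) and Timp1 at −1.09 (adjusted p = 0.0478). Without GL261 MG of tumour 80769 alone, Mmp12 (5.09, adjusted p = 0.0272) and Adam8 (3.12, adjusted p = 0.0230) were called in GL261. Adam8 was also called by DESeq2 (adjusted p = 0.0376), without Rn45s (0.0446) and without GL261 BMDM of tumour 80766 (0.04003). In GEMM, Mmp13 was called without GEMM MG of BB30101 (3.31, adjusted p = 0.0359) and Timp3 without GEMM BMDM of BB30105 (−1.77, adjusted p = 0.0485).

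**Figure D2:**
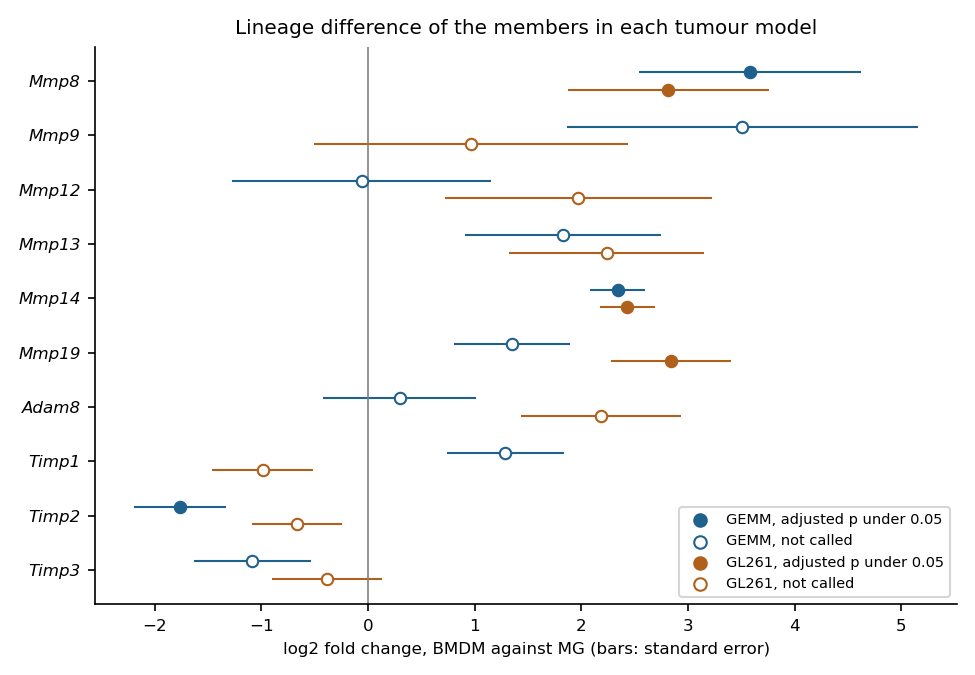
Log2 fold change of BMDM against MG (x) for each member (y) in GEMM (blue) and GL261 (orange), with bars of 1 standard error and filled points for an adjusted p under 0.05. Mmp14 lay at 2.34 and 2.43 with the shortest bars, and Timp1 lay on opposite sides of 0, open in both models.

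Because MG and BMDM with the same number came from 1 tumour, the values were also set side by side within tumours. Mmp14 was 4.49 to 5.54 times as high in BMDM in the GEMM tumours and 3.82 to 5.03 times in the GL261 tumours. Mmp19 was higher in BMDM in all 6 tumours, by 1.82 to 2.96 times in GEMM and 5.47 to 6.30 times in GL261. Mmp13 was higher in BMDM in all 6, by 2.90 to 8.16 times in GEMM and 1.43 to 22.2 times in GL261, with tumour 80769 at the lower end.

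Adam8 was higher in BMDM by 3.36 to 4.53 times in the GL261 tumours, and in GEMM it was higher in BMDM of 2 tumours and in MG of tumour BB30101, by 1.49 times. Mmp12 was higher in BMDM by 2.51 to 30.6 times in the GL261 tumours and again higher in MG of BB30101, by 1.32 times. Timp2 was higher in MG by 2.58 to 4.69 times in GEMM and 1.03 to 4.41 times in GL261. Tumour 80769 was near even, and its order depends on scaling, as its TMM factors were 1.277 (MG) and 0.9745 (BMDM).

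With tumour as a replicate block over the 12 tumour libraries, GEMM calls rose from 3 to 5, adding Mmp19 (1.31, adjusted p = 0.00139) and Timp1 (1.31, adjusted p = 0.00328). GL261 calls rose from 3 to 7, adding Mmp12 (2.70, adjusted p = 0.0376), Mmp13 (3.54, adjusted p = 0.0224), Adam8 (2.24, adjusted p = 0.00382) and Timp1 (−1.09, adjusted p = 0.00327). Each added member was on the same side of 0 in both fits.

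**Figure D3:**
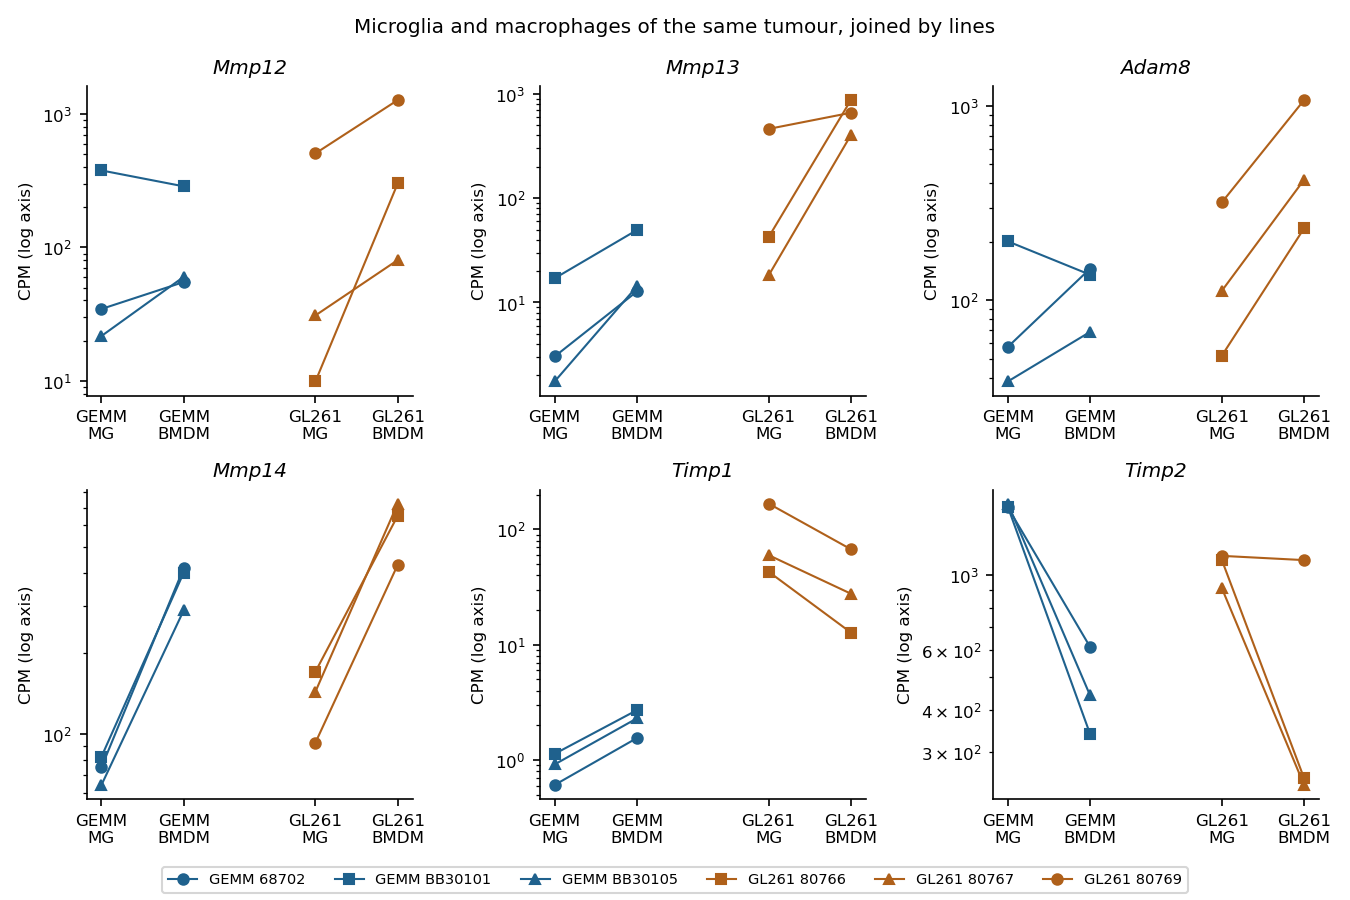
CPM on a log axis (y) in MG and BMDM of the same tumour (x), joined by lines, for 6 members in GEMM (blue) and GL261 (orange). All 6 Mmp14 lines went up by 3.82 to 5.54 times, and Timp1 lines went up in GEMM and down in GL261. All 6 Timp2 lines went down in CPM, that of tumour 80769 by only 1.03 times.

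The difference between the models in this lineage contrast was tested as an interaction. Of the 10 members 0 were called, where 1.63% of all genes were called (0.605% higher, 1.02% lower), 1 member had an unadjusted p under 0.05, and DESeq2 called 0. That member was Timp1. By unscaled CPM it was 2.40 to 2.55 times as high in BMDM in the GEMM tumours and 2.16 to 3.37 times as high in MG in the GL261 tumours. Its interaction was −2.28 ± 0.72 (adjusted p = 0.123), −2.40 with the replicate block (adjusted p = 0.0123) and −2.38 without both libraries of tumour 80769 (adjusted p = 0.0176). With the block, Mmp19 also passed, at 1.52 (adjusted p = 0.0231). For Mmp14 the interaction was 0.09 ± 0.35 (adjusted p = 0.951), which does not show that the models act alike.

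The next comparison set microglia of tumours against Normal MG. Mmp13, Mmp12, Adam8, Timp1, Mmp19 and Mmp14 rose in MG of both models. Mmp12 was higher by 83.3 times in GEMM MG (6.38 ± 1.57, adjusted p = 0.00338) and by 77.4 times in GL261 MG (6.27 ± 1.56, adjusted p = 0.00251). Adam8 was higher by 45.7 times (5.51 ± 0.89, adjusted p = 8.80e-05) and 54.7 times (5.77 ± 0.90, adjusted p = 3.25e-05), and Mmp14 by 1.796 times (0.84 ± 0.25, adjusted p = 0.0110) and 2.45 times (1.29 ± 0.25, adjusted p = 0.000294). Mmp19 was higher by 4.01 times (2.00 ± 0.59, adjusted p = 0.0110) and 6.53 times (2.71 ± 0.60, adjusted p = 0.000879). These sizes rest in part on 1 tumour of each model. Without GEMM MG of tumour BB30101, Mmp12 was at 4.11 (adjusted p = 0.0256) and Adam8 at 4.55 (adjusted p = 0.000345). Without GL261 MG of tumour 80769, Mmp12 was at 3.16 (adjusted p = 0.0488), Adam8 at 4.84 (adjusted p = 0.000228) and Mmp19 at 1.78 (adjusted p = 0.0138).

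Mmp13 had 3 counts over the Normal MG libraries, so its ratio is given from pooled counts with an exact 95% interval that covers counting error only. That ratio was 246 (83.7 to 1193) in GEMM MG and 5205 (1781 to 25245) in GL261 MG, with adjusted p = 0.00133 and 1.29e-05 in the edgeR fit. Most GL261 MG counts of Mmp13 came from tumour 80769, and its fitted log2 fold change went from 11.69 to 9.25 without that library (adjusted p = 1.26e-05). In GEMM MG, Mmp13 went from 7.58 to 6.03 without tumour BB30101 (adjusted p = 0.00832). Timp1 had 4 counts there, and its ratio was 19.6 (7.35 to 73.7) in GEMM MG and 1962 (766 to 7204) in GL261 MG, with adjusted p = 0.000943 and 2.31e-08, and the fitted GL261 value went from 10.40 to 9.63 without the MG library of tumour 80769. Mmp8 had 7 counts in Normal MG, and its ratio in GL261 MG was 47.6 (22.7 to 119.6, adjusted p = 0.00751), while Mmp9 in GL261 MG had 4.98 ± 2.01 (adjusted p = 0.0424). In GEMM MG neither passed, with adjusted p = 0.118 and 0.243, but DESeq2 called Mmp8 (3.39, adjusted p = 0.0153) and the fit of only the groups compared called Mmp9 (3.15, adjusted p = 0.00344). Timp2 was called in GEMM MG (1.48 ± 0.43, adjusted p = 0.00932) and had 0.44 ± 0.42 in GL261 MG (adjusted p = 0.383). Timp3 was called in GL261 MG (1.45 ± 0.53, adjusted p = 0.0254) and had −1.06 ± 0.53 in GEMM MG (adjusted p = 0.112), where it was called with only the groups compared (−1.02, adjusted p = 0.0147).

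In GEMM MG 7 members were called higher and 0 lower, where 43.8% of genes were called (23% higher, 20.9% lower). In GL261 MG 9 were higher and 0 lower, where 57.8% were called (30.6% higher, 27.2% lower). The median log2 fold change of the members was 3.19 and 5.03, against −0.02 and 0.01 over all genes. These comparisons share the Normal MG libraries. Without tumour 80769, GL261 MG calls numbered 6, and Mmp8 (3.07, adjusted p = 0.158), Mmp9 (2.33, adjusted p = 0.356) and Timp3 (0.93, adjusted p = 0.136) no longer passed. The Mmp9 and Timp3 calls were also lost without any 1 of the 3 Normal MG libraries, with adjusted p of 0.101 to 0.118 and 0.0593 to 0.105, and Mmp9 also with no filter (adjusted p = 0.0866). Mmp8 was at 6.05 and 4.49 without Normal MG libraries 67572 and 67573. In GEMM MG the Mmp14 call was lost without Normal MG library 67572 (0.76, adjusted p = 0.0524) and the Mmp19 call without GEMM MG of tumour BB30101 (1.65, adjusted p = 0.0547).

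Between the models, Timp1, Timp3 and Mmp13 were higher in GL261 in both cell types. Timp1 was higher by 72.8 times in MG (6.19 ± 0.61, adjusted p = 2.94e-06) and by 15.0 times in BMDM (3.91 ± 0.54, adjusted p = 9.70e-05). Timp3 was higher by 5.69 times in MG (2.51 ± 0.55, adjusted p = 0.00202) and by 9.25 times in BMDM (3.21 ± 0.57, adjusted p = 0.00082). Mmp13 was higher by 17.3 times in MG (4.11 ± 1.00, adjusted p = 0.00460) and by 23.0 times in BMDM (4.52 ± 1.01, adjusted p = 0.00491), and Mmp19 by 4.58 times in BMDM (2.20 ± 0.55, adjusted p = 0.00896). Without the library of tumour 80769, Timp1 was at 5.42 in MG and 2.99 in BMDM, both still called. Without that of tumour BB30101, Mmp13 was at 5.56 in MG and 5.40 in BMDM, and Timp3 in BMDM was at 3.82 without that of BB30105.

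In MG 3 members were called higher in GL261 and 0 lower, where 34.3% of genes were called (18.8% higher, 15.5% lower). In BMDM 4 were higher and 0 lower, where 19.7% were called (10.2% higher, 9.46% lower). Mmp12 had −0.11 ± 1.21 in MG (adjusted p = 0.960) and 1.93 ± 1.25 in BMDM (adjusted p = 0.300). Adam8 had 2.15 ± 0.75 in BMDM (adjusted p = 0.0514), with the ranges of the models apart. It passed with DESeq2 (adjusted p = 0.0327), RLE factors (0.0487), without Rn45s (0.0485) and without GL261 BMDM of tumour 80766 (2.54, 0.0345), and had 1.24 without that of tumour 80769 (adjusted p = 0.275). Timp2 had −1.04 in MG (adjusted p = 0.0657), and was called lower in GL261 MG with DESeq2 (adjusted p = 0.0432), without Rn45s (0.0407), with only the groups compared (0.00972) and without both libraries of tumour 80769 (−1.07, 0.00369). Without both libraries of tumour 80769, Mmp13 in MG was at 1.66 (adjusted p = 0.107), Mmp14 was called in MG (0.68, adjusted p = 0.0200) and in BMDM (0.72, adjusted p = 0.0192), and Timp2 in BMDM went from 0.05 ± 0.42 (adjusted p = 0.944) to −1.10 (adjusted p = 0.00457). The Mmp19 call in BMDM was lost without GL261 BMDM of tumour 80769 (1.22, adjusted p = 0.0954) and without GEMM tumour 68702 (1.93, adjusted p = 0.0523). With only the groups compared, Mmp13 in MG (4.02) and Mmp19 in BMDM (2.22) both had adjusted p = 0.0674.

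Macrophages were then compared with blood monocytes, the cells from which they are held to derive. Mmp14, Mmp13, Mmp12, Timp2 and Timp1 were higher in BMDM of both models, and Mmp8 and Mmp9 lower. Mmp14 had 29 counts over the 5 monocyte libraries, and its ratio of pooled counts was 412 (exact 95% interval 287 to 616) in GEMM BMDM and 659 (458 to 983) in GL261 BMDM, with adjusted p = 4.42e-13 and 1.92e-13. For Mmp12, with 20 monocyte counts, the ratios were 219.6 (142 to 359.6) and 945 (612 to 1548), and for Mmp13, with 6, they were 139 (63.7 to 379) and 3488 (1602 to 9506). For Timp1, with 4, they were 17.6 (6.76 to 65.0) and 299 (117 to 1099). Timp2 was higher by 7.24 times (2.86 ± 0.38, adjusted p = 4.77e-06) and 7.52 times (2.91 ± 0.38, adjusted p = 3.08e-06). Without GL261 BMDM of tumour 80769, Timp2 was at 1.77 (adjusted p = 1.70e-06), and the fitted values of Mmp12 and Timp1 went from 9.79 to 8.25 and from 8.12 to 7.26, all still called. Without GEMM BMDM of tumour BB30101, Mmp12 went from 7.87 to 6.70 and Mmp13 from 7.19 to 6.32. Without monocyte libraries 64820 and 64821, Mmp13 was at 8.18 in GEMM BMDM and, from 11.71, at 12.71 in GL261 BMDM.

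Mmp8 was lower in GEMM BMDM by 33.1 times (−5.05 ± 0.97, adjusted p = 0.000299) and in GL261 BMDM by 16.5 times (−4.04 ± 0.92, adjusted p = 0.00108). Mmp9 was lower by 16.9 times (−4.08 ± 1.56, adjusted p = 0.0336) and 26.3 times (−4.71 ± 1.62, adjusted p = 0.0177). Each of these Mmp9 values includes 1 high BMDM library. Without GEMM BMDM of tumour 68702 the GEMM value was −7.58 (adjusted p = 0.00475), and without GL261 BMDM of tumour 80769 the GL261 value was −8.56 (adjusted p = 0.00263), where Mmp8 was at −4.74. In GEMM BMDM 5 members were called higher and 3 lower, where 57.3% of genes were called (31.6% higher, 25.7% lower), the other lower member being Mmp19 (−1.38 ± 0.50, adjusted p = 0.0247). In GL261 BMDM 7 were called higher and 2 lower, where 63% were called (34.1% higher, 28.9% lower), with Timp3 (3.64 ± 0.52, adjusted p = 1.03e-05) and Adam8 (2.29 ± 0.63, adjusted p = 0.00441) among the higher. The Mmp19 call in GEMM BMDM was lost in 4 of 16 alternatives. The Mmp9 calls were lost in 5 of 16 alternatives for GEMM BMDM and 2 of 15 for GL261 BMDM, and the Adam8 call was lost without tumour 80769 (1.45, adjusted p = 0.0526). Mmp19 was called higher in GL261 BMDM without the library of tumour 80766 (1.17, adjusted p = 0.0418). All member calls of both comparisons held with monocyte library 64820 or 64821 left out in turn.

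Monocytes and Normal MG, the cells outside tumours, differed in 7 of 10 members, 4 higher and 3 lower in Monocytes, where 62.8% of genes were called (30.4% higher, 32.4% lower). Mmp8 had 7 counts in Normal MG, and the ratio of pooled counts was 4569 (2217 to 11366; fitted log2 value 11.94, and 12.97 without Normal MG library 67572), and for Mmp9, with 24 counts, it was 1842 (1237 to 2876). Mmp19 was higher by 26.6 times (4.73 ± 0.62, adjusted p = 2.59e-06) and Adam8 by 50.6 times (5.66 ± 0.88, adjusted p = 1.96e-05). Mmp14 was lower by 49.9 times (−5.64 ± 0.29, adjusted p = 3.21e-11), Timp2 by 8.77 times (−3.13 ± 0.38, adjusted p = 1.03e-06) and Timp3 by 5.97 times (−2.58 ± 0.52, adjusted p = 0.000323).

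Markers of other cell types moved with some members. Neutrophil markers (13 of 14 listed genes in the table) summed to 1829 to 25123 CPM in Monocytes, where libraries 64820 and 64821 were lowest, as they were for Mmp8 and Mmp9. The receptor gene Csf3r made up 88.1 to 397 CPM of the sum in tumour microglia and 603 to 621 in Normal MG. In GEMM BMDM the sum was 1873 CPM in tumour 68702 against 237 and 186 in the others. Retnlg, a gene of neutrophils, was at 1469 CPM in tumour 68702 against 65.2 and 6.52, alongside Mmp9 at 65.5 CPM. In GEMM BMDM of tumours 68702, BB30101 and BB30105, 8, 8 and 4 of the 13 genes were at 1 CPM or more. Elane and Camp were at 0 in all 3 GEMM BMDM libraries, and also in all GEMM MG and Normal MG libraries. In GL261 tumour 80769, where Mmp9 was also high, Retnlg was at 0.136 CPM in BMDM and 0 in MG. S100a8, another gene of the list, was at 0.770 CPM in BMDM and 13.7 in MG, against 0.0503 and 0.718 in the other GL261 MG libraries. In MG of tumour 80769, S100a9, Ngp, Camp, Elane and Stfa2 were also at 0. Its neutrophil sum was 108 CPM against 321 and 365, with 4 genes at 1 CPM or more against 1 and 3. In BMDM of that tumour the sum was 111 CPM against 186 and 178. Without tumour 68702, Mmp8 of GEMM BMDM against MG was at 2.89 (adjusted p = 0.151). The GEMM cells were sorted as Ly6c- Ly6g-, and Ly6g is a surface marker of neutrophils. The part of neutrophil RNA in these results was not tested.

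Markers of oligodendrocyte precursors or glioma cells (6 of 6 in the table) summed to 461 to 1024 CPM in GL261 MG, 159 to 383 in GL261 BMDM, 116 to 177 in GEMM MG and 13.5 to 82.5 in GEMM BMDM. The sum was 1.65 to 4.16 CPM in Normal MG and 0.153 to 1.43 in Monocytes. It was highest in the GL261 MG library of tumour 80769, which also had the highest Timp1 and Timp3. Pericyte or fibroblast markers (10 genes) were at 31.1 to 190.2 CPM in GL261 MG against 5.26 to 61.3 in the other tumour groups. The part of tumour or stromal RNA in the Timp1 and Timp3 differences between models was not tested.

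Astrocyte markers (7 of 7 in the table) had sums of 389 to 495 CPM in Normal MG. GEMM MG ranged from 105 to 165 CPM and GEMM BMDM from 14.6 to 47.8, GL261 MG from 184 to 343, and Monocytes from 3.20 to 7.22. Like Timp2 and Timp3, the sum was lower in BMDM than in MG by group median in both models. The sum was highest in Normal MG, Timp2 in GEMM MG and Timp3 in GL261 MG. Timp3, like the sum, was higher in Normal MG than in GEMM MG and GEMM BMDM. In GL261 BMDM the astrocyte sum was 239 CPM in tumour 80769, where Timp2 was at 1106, against 42.8 and 58.6 in the other tumours. The list gene Gjb6 was at 0 in that library, and also in GL261 BMDM of tumour 80767, GL261 MG of tumour 80769 and GEMM MG of tumour BB30101. The part of astrocyte RNA in the Timp2 and Timp3 differences was not tested.

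**Figure D4:**
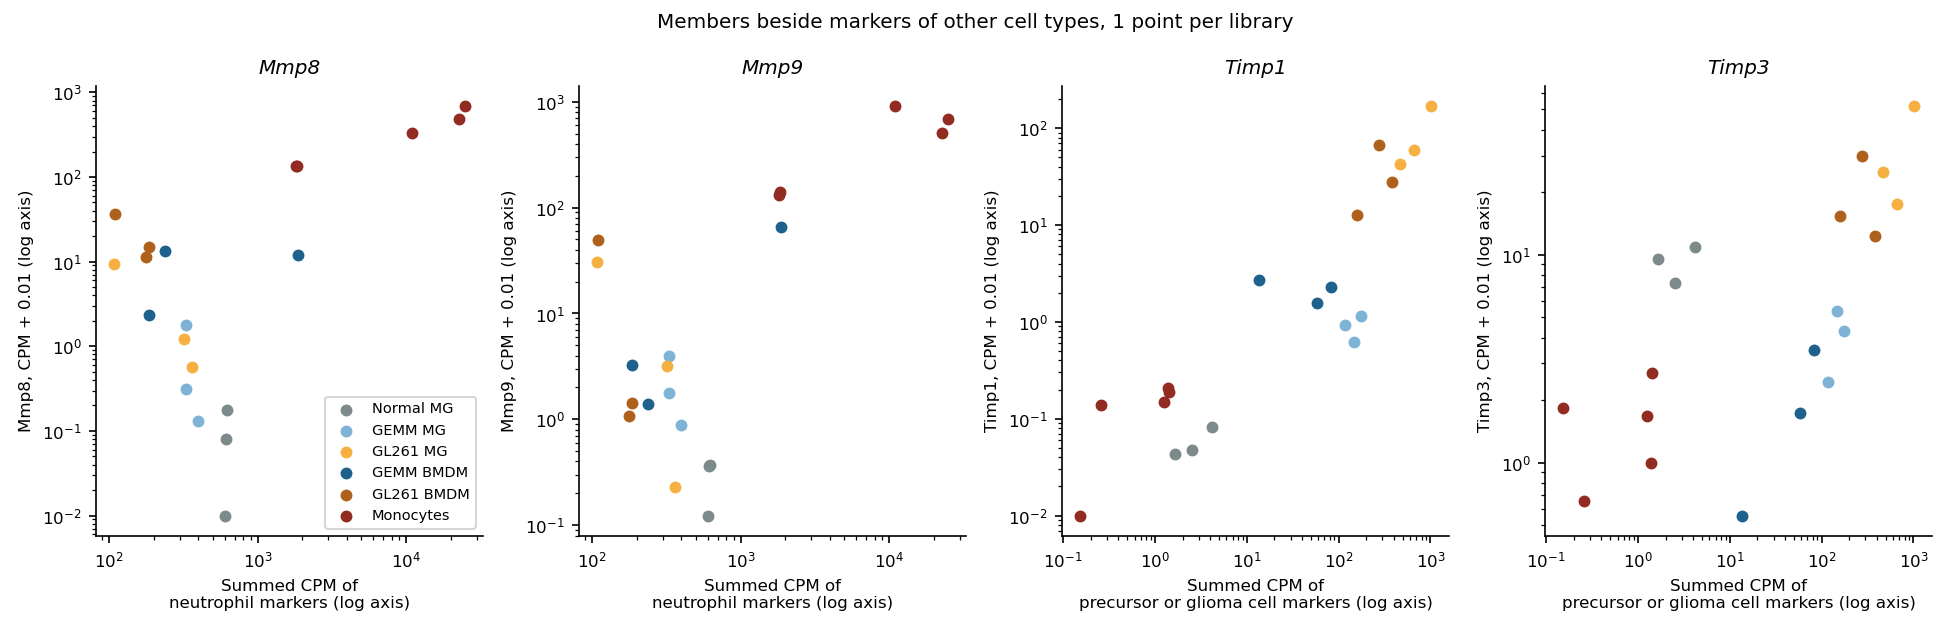
Mmp8 and Mmp9 (CPM plus 0.01, y) against summed neutrophil markers (CPM, x), and Timp1 and Timp3 against summed precursor or glioma cell markers, log axes, 1 point per library coloured by group. GEMM BMDM of tumour 68702 stood at 1873 CPM of neutrophil markers and 65.5 CPM of Mmp9, and GL261 MG held the highest Timp1 and marker sums.

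To compare levels between genes, CPM was divided by exon length in kilobases, taken as the union of annotated exons, and each of the 6 Mmp genes was given as a share of their sum. Other Mmp genes are outside this sum. Among them is Mmp2, at a mean of 35.6 CPM in Normal MG, 66.6 to 206 in the tumour groups and 1.58 in Monocytes. In Normal MG, Mmp14 made up 91.4% ± 3.45 (SD, n = 3) of the sum of the 6 genes. In GEMM BMDM its share was 62.4% ± 11.98, and in Monocytes Mmp8 and Mmp9 made up 51.5% ± 9.82 and 43.9% ± 11.2 (n = 5). In GL261 BMDM, Mmp13 was the largest share at 53.9% ± 11.3 and Mmp14 had 25.4% ± 14.1. In GEMM MG, Mmp12 had 69.3% in tumour BB30101 and 23.1% and 19.1% in the other tumours. In GL261 MG, Mmp13 had 62.5% in tumour 80769 against 32.8% and 18.3%.

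Shares depend on the length used. With the longest principal transcript, a choice made after the shares were seen, Mmp13 and Mmp14 of GL261 BMDM were at 36.9% ± 10.1 and 39.0% ± 19.9, so which gene led there changed. Timp2 made up 97.6% to 99.6% of the 3 Timp genes by group mean in GEMM, and 73.9% ± 12.7 in GL261 MG and 74.5% ± 7.95 in GL261 BMDM, where Timp1 had 25.1% ± 12.4 and 23.9% ± 8.09. The summed Mmp genes divided by the summed Timp genes, per length, gave 0.0514 ± 0.00861 for Normal MG. For microglia of tumours the ratio was 0.0907 ± 0.0812 (GEMM) and 0.277 ± 0.251 (GL261), for BMDM 0.919 ± 0.514 (GEMM) and 3.59 ± 2.31 (GL261), and for Monocytes 14.2 ± 6.76. With principal transcript lengths the order of group means was the same, but the ratio was 0.108 ± 0.0187 for Normal MG, 0.171 ± 0.147 for GEMM MG and 1.72 ± 0.925 for GEMM BMDM, so the mean of GEMM BMDM lay above 1 and not below it. These are ratios of RNA levels of the members only, which leave out Mmp2, and are given with no test.

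**Figure D5:**
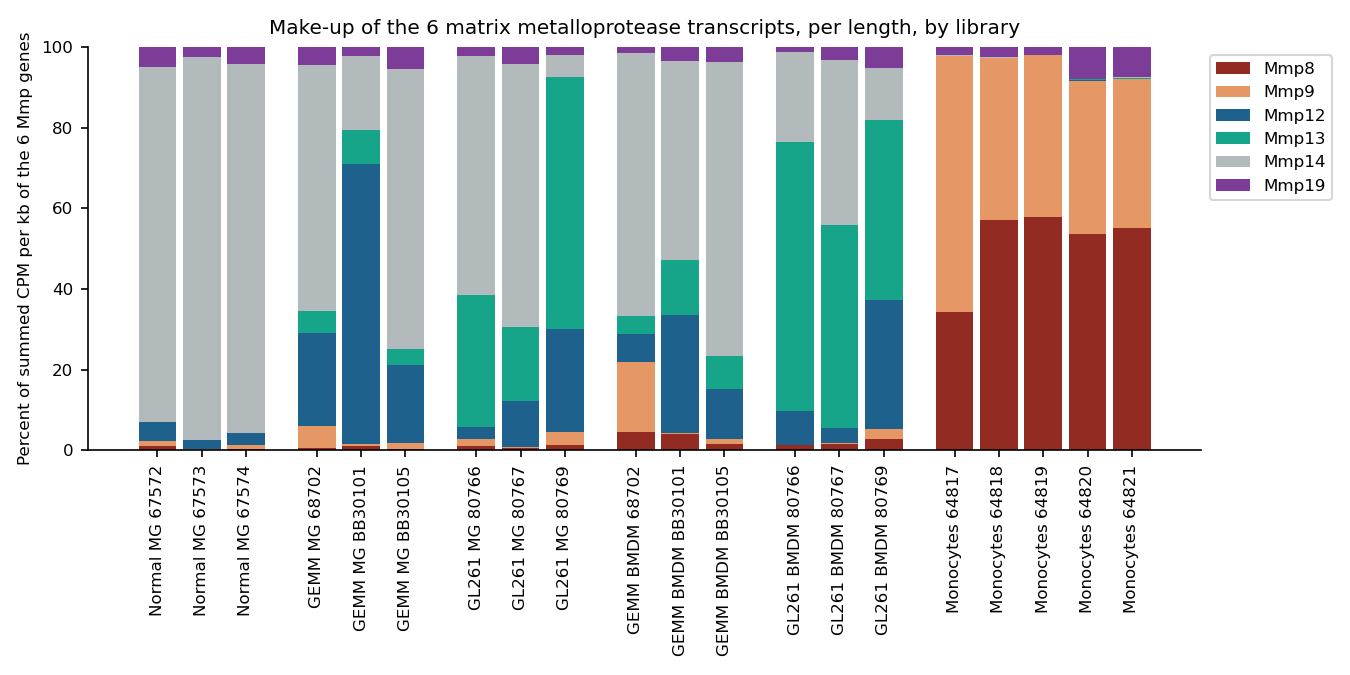
Percent of the summed CPM per kilobase of exon union that each of the 6 Mmp genes made up (y), stacked, in each library (x). Mmp14 filled 88.1% to 94.95% of Normal MG bars, Mmp8 and Mmp9 nearly all of the monocyte bars, and in GEMM MG of tumour BB30101 Mmp12 filled 69.3%.

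Other genes of the system were counted from lists of the family, chosen with earlier results of these data known. Of 17 other metalloproteases 11 were tested. In GEMM BMDM against MG 3 were higher and 1 lower, where 12.7% and 8.1% of all genes were, and in GL261 0 were higher and 1 lower, where 10.7% and 6.81% were. Mmp25, a membrane-anchored metalloprotease of leukocytes, was at 42.9 ± 15.1 CPM in GEMM BMDM against 2.93 ± 1.06 in GEMM MG (log2 fold change 3.89 ± 0.67, adjusted p = 0.000432). Mmp2, the gelatinase that MMP14 activates, rose from 35.6 ± 2.10 CPM in Normal MG to 100.3 ± 16.8 in GEMM MG (1.63 ± 0.39, adjusted p = 0.00275). In BMDM it was lower in GL261, 66.6 ± 26.7 CPM against 206 ± 137 (−1.83 ± 0.40, adjusted p = 0.00364). In GL261 MG, Mmp16 (MT3-MMP) was at 70.4 ± 54.9 CPM against 0.299 ± 0.102 in Normal MG (7.53 ± 0.79, adjusted p = 4.63e-07). Its means were 25.4 CPM in GL261 BMDM, 4.44 in GEMM MG and 1.22 in GEMM BMDM. Over the tumour groups this is the order of the precursor or glioma cell markers above. The part of tumour RNA in the Mmp16 difference was not tested.

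Of 18 other ADAM and ADAMTS proteases, all tested, 4 were higher and 4 lower in GEMM BMDM than MG (12.7% and 8.1% of all genes), and 3 higher and 1 lower in GL261 (10.7% and 6.81%). The share called was above that of all genes in GEMM and near it in GL261. Adam19 was higher in BMDM of both models, at 68.3 ± 26.0 CPM against 2.32 ± 1.25 in GEMM (4.90 ± 0.72, adjusted p = 0.000108) and at 28.7 ± 8.51 against 9.52 ± 11.6 in GL261 (1.91 ± 0.63, adjusted p = 0.0440). Adamts1, a secreted protease of proteoglycans, was lower in BMDM of both, at 8.76 ± 8.93 CPM against 92.5 ± 23.3 in GEMM (−3.45 ± 0.51, adjusted p = 0.000106) and at 72.2 ± 15.6 against 272 ± 122 in GL261 (−1.60 ± 0.47, adjusted p = 0.0247). Adam9 differed between the models in this contrast (interaction 1.11 ± 0.20, adjusted p = 0.00892), as did Adam15 (1.38 ± 0.34, adjusted p = 0.0466).

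Of 21 other inhibitors, activators, binding and clearance genes 20 were tested, with 3 higher and 4 lower in GEMM BMDM than MG (12.7% and 8.1% of all genes), and 3 higher and 3 lower in GL261 (10.7% and 6.81%). Plaur, the urokinase receptor, was higher in GL261 BMDM, at 850.3 ± 228 CPM against 262 ± 81.0 (1.99 ± 0.23, adjusted p = 1.82e-05), with an interaction of 1.35 ± 0.32 (adjusted p = 0.0420). Serpine2, an inhibitor of serine proteases, was lower there, at 7.12 ± 5.72 CPM against 217 ± 147 (−4.67 ± 0.79, adjusted p = 0.000526). Cd44, the hyaluronan receptor that can hold MMP9 at the cell surface, was higher in GEMM BMDM, at 157 ± 30.5 CPM against 40.7 ± 21.5 (1.97 ± 0.33, adjusted p = 0.000336). Furin, a protease that activates pro-MMP14, was higher in GL261 BMDM, at 126 ± 10.5 CPM against 40.5 ± 2.93 (1.94 ± 0.31, adjusted p = 0.000294).

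Of 23 matrix genes, all tested, 16 rose and 0 fell in GEMM MG against Normal MG (list median 2.93, all genes −0.02), where 23% of all genes were higher and 20.9% lower. In GL261 MG 20 rose and 1 fell (list median 5.34, all genes 0.01), where 30.6% were higher and 27.2% lower. Spp1 (osteopontin) was at 1568 ± 1386 CPM in GEMM MG against 17.4 ± 8.22 (6.64 ± 0.78, adjusted p = 3.33e-06), and Fn1 (fibronectin) at 795 ± 379 in GL261 MG against 3.46 ± 1.60 (7.53 ± 0.86, adjusted p = 1.19e-06). Fn1 and Spp1 did not have the order of groups of the precursor or glioma cell markers above. Fn1 was highest in Monocytes, at 2803 ± 237 CPM, and Spp1 had a lower mean in GL261 MG, at 991 ± 438, than in GEMM MG. Other genes of the list had the markers' order over the tumour groups. Col18a1 had means of 187 CPM in GL261 MG, 84.4 in GL261 BMDM, 3.83 in GEMM MG and 1.68 in GEMM BMDM. Those of Col3a1 were 77.7, 17.6, 4.43 and 4.06 CPM. The part of tumour RNA was not tested. In BMDM against MG, Thbs1 (thrombospondin 1) was higher by 11.1 times in GEMM (3.47 ± 0.33, adjusted p = 2.22e-06) and by 8.92 times in GL261 (3.16 ± 0.33, adjusted p = 6.99e-06). Sparc, a matricellular protein, was lower by 12.3 times (−3.63 ± 0.58, adjusted p = 0.000244) and 10.6 times (−3.41 ± 0.58, adjusted p = 0.000526).

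Likeness of pattern was described by Pearson's r of log2(CPM + 1) over the 20 libraries, which share groups and tumours, among 8659 genes at a mean of 20 CPM or more in a group. The genes most like Mmp12 were Arg1 (arginase 1, r = 0.98) and Ccl24 (a chemokine, r = 0.95), and those most like Mmp14 were Cxcl16 (r = 0.99) and BC024582 (r = 0.97). Mmp9 was most like Padi4 and Pi16 (both r = 0.94). Mmp13 was most like Sdhd (r = 0.97) and H2-M2 (r = 0.96), Mmp19 like Sestd1 (r = 0.96) and F10 (r = 0.95), and Adam8 like Ecm1 (r = 0.94) and Lamtor2 (r = 0.93).

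Timp1 was most like Spats2l and Plod2 (both r = 0.98), Timp2 like Agpat3 (r = 0.98) and Plekha8 (r = 0.97), and Timp3 like Aldh1l2 and Thbs2 (both r = 0.95). Arg1, for example, had group means of 2459 CPM in GL261 BMDM, 1242 in GL261 MG, 731 in GEMM BMDM, 354 in GEMM MG, 1.75 in Normal MG and 2.27 in Monocytes. Among the members, r was 0.91 between Mmp8 and Mmp9, 0.88 between Mmp12 and Mmp13, 0.86 between Mmp13 and Timp1 and −0.84 between Mmp8 and Timp2, over the same 20 libraries. Of the genes of the chromosome 9 cluster, Mmp8 and Mmp12 had r = −0.29, and Mmp8 and Mmp13 −0.12.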

How the data were processed

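Values came as 1 table of deposited raw counts, whole numbers for each symbol whose totals differ between libraries. CASAVA 1.8, STAR 2.5.0e, HTSeq and DESeq2 are named, with mm10 as build and with neither role nor order, per the submitters' processing notes. No source used here states the annotation or the strand setting. Groups and tumour numbers came from the titles. The members, lists and markers were chosen with earlier results of these data known. The text names all members, up to 4 called genes per list with the smallest p at 5 CPM or more in a group compared, the 2 genes most like each member (Gm and Rik names left out; those of Mmp8 are not reported here), markers, P2ry12 and Itga4. Retnlg, Csf3r, Rn45s and Xist were chosen to show after their values were seen.

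CPM is the count per 1000000 counts of the library. In R 4.3.3, counts were filtered (filterByExpr, minimum count 10, minimum total 15), scaled by TMM and fitted over 20 libraries and 6 groups with edgeR 4.0.16, robust quasi-likelihood. A call is a Benjamini-Hochberg adjusted p under 0.05 over 15363 genes. The standard error is the log2 fold change divided by the root of F. Fitted folds need not equal ratios of CPM, since TMM factors were 1.17 to 1.28 in GL261 MG and 0.84 to 0.961 in the GEMM groups. Alternatives were DESeq2 1.42.0, RLE factors, no filter, no Rn45s, only the groups compared, each library left out, monocyte libraries 64820 and 64821 left out together, a tumour block and, chosen after seeing the data, leaving out tumours 80769, BB30101 or 68702. The fit was also run on simulated counts. The changed genes were limited to those at 5 CPM or more in GEMM MG after wider choices had recovered fewer. Mmp8, Mmp9, Mmp19, Timp1 and Timp3 lie under that limit, and nothing is drawn from the simulation here.

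In deviations from group means across genes, MG and BMDM of 1 tumour had correlations of 0.32, 0.22 and 0.20 (GEMM) or 0.39, 0.22 and 0.39 (GL261), against at most 0.08 between tumours, so numbers were taken to pair the libraries, which the series describes as matched. Nothing says that the Normal MG and Monocytes libraries came from separate animals beyond their numbers, so their p-values measure the spread between these libraries. Monocytes have the lowest depth and thus the largest counting error. Exact intervals (Clopper-Pearson, 95%) cover counting error only.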

Additional observations from a re-analysis of the deposited data

Results flagged for a closer look

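Timp1 was lower in BMDM than in MG in each of the 3 GL261 tumours and higher in BMDM in each of the 3 GEMM tumours. The test of the difference between the models gave −2.28 on the log2 scale (adjusted p = 0.123, edgeR), which did not pass the threshold over all genes, and over 21 alternatives the adjusted p ranged from 0.0123 to 0.307, passing in 3. No sample of a member stood apart among the 5 monocyte libraries, the only group large enough for that check, over 10 members. Chance alone would be expected to mark about 1 in 20 such checks.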

How the results depend on the processing

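Of 1455 member values under an alternative, 1365 kept their direction and side of the threshold or stayed uncalled, 50 lost a call, 38 gained a call and 2 turned. Both turned values are Timp2 in GL261 BMDM against GEMM BMDM, −1.14 without GL261 BMDM of tumour 80769 and −1.10 without both libraries of that tumour (−1.14 to 0.43 with each library left out). Member calls in the GEMM lineage comparison numbered 5 with the replicate block, against 3, and 2 to 4 with each library left out. In the GL261 lineage comparison they numbered 1 when only the groups compared were fitted, 6 without tumour 80769, 7 with the replicate block, and 2 to 6 with each library left out (6 without GL261 MG of tumour 80769). In the model difference they numbered 1 without tumour 80769, 2 with the block, and 0 to 1 with each library left out (1 without GL261 BMDM of tumour 80769). Over all genes, the model difference had 250 calls, 795 by DESeq2, 156 with no filter, 21 with only the groups compared and 102 to 459 where leaving out a library moved it by over 1.5 times. With only the groups compared, all-gene calls fell from 2692 to 833 in the GL261 lineage comparison and from 3027 to 1765 between BMDM of the models. Other all-gene counts that moved this far were 1768 and 1987 (GEMM lineage, without tumours BB30101 and 68702), 2001 (without GEMM BMDM of BB30101), 1695 and 1767 (GL261 lineage, without GL261 BMDM of 80766 and GL261 MG of 80767), 2002 (BMDM of the models, without tumour 68702) and 134 (model difference, without tumour BB30101), the first 3 against 3194. The block changed no other call of a member in these 3 comparisons. The cause of these changes was not tested, apart from fewer libraries entering some fits. Against monocytes, DESeq2 moved the median of all genes by −0.49 (GEMM BMDM) and −0.46 (GL261 BMDM), and by 0.49 for Monocytes against Normal MG, and no call of a member turned. In Monocytes, 0 to 9 counts of Mmp12, Mmp13, Mmp14 and Timp1 per library limit their ratios. With 3 tumours per model, the range over all tumours of either model was not measured.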
